A study of Naumovozyma castellii with 6 samples.

Results

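The transcripts described here are 155 Xrn1-sensitive unstable transcripts (XUTs) of the budding yeast Naumovozyma castellii whose longest open reading frame (ORF) measures at least 200 and under 600 nt. Together they hold 1940 of the 8742 ORFs in the deposited table (22.2%) out of 1002 XUTs. Of 224 XUTs with a longest ORF in this range, 69 were left out. Of these, 27 lay within 50000 nt of a chromosome end, as far as the table shows the ends, and 51 overlapped an XUT of the other strand or lay within 1000 nt of one. Members were thus chosen by length and position, not by reads. Each longest ORF is set against the 1785 other ORFs of the same XUTs. Of the members, 595 of 1940 ORFs had at least 1 read. No filter on reads was applied.

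Ribosome footprints were sequenced from 2 haploid strains, both MATalpha ura3-1 ho, grown in YPD at 25 °C to an OD600 of 0.5 and treated with cycloheximide for 15 min. The labels put 3 libraries in the wild type (YAM2478) and 3 in a mutant (YAM2890) that also carries upf1::kanMX6, which replaces the gene of the nonsense-mediated decay helicase Upf1. The deposited table merges libraries and names none, so each ORF has 1 value with no replicate error. No contrast of upf1 with wild type and no test over samples could be made, and library depths are unknown. The intervals below are 95% Wilson intervals. They cover counting error and treat ORFs as independent, although ORFs that overlap share reads.

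XUTs are cytoplasmic long noncoding RNAs that accumulate when the 5′-to-3′ exonuclease Xrn1 is missing. Some such RNAs in yeast reach ribosomes, and a stop codon that is followed by a long untranslated stretch exposes an RNA to nonsense-mediated decay. N. castellii has kept RNA interference, in which double-stranded RNA is cut by Dicer, whereas Saccharomyces cerevisiae has lost it. A ribosome that translates moves in steps of 1 codon, so its footprints repeat every 3 nt. The deposited phase score measures that repeat from 0 to 1, and the number of valid codons says how many codons it rests on. The sources used here do not define a valid codon. An ORF counts as called where the authors' column marks it as translating. No called ORF of the table has fewer than 5 valid codons.

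The longest ORF was called in 31 of the 155 XUTs (20.0%, interval 14.5 to 27.0%). Of the 1785 other ORFs, 60 were called (3.36%, interval 2.62 to 4.30%). Over the whole table, the share called was 6.60% of all ORFs, 15.3% of the longest ORFs of all 1002 XUTs and 5.48% of the rest. The interval of the 155 longest ORFs includes 15.3%, while the other ORFs of these XUTs lay below 5.48%. That lower share is not particular to them. With the same exclusions, 85 of 3059 other ORFs (2.78%, interval 2.25 to 3.42%) were called where the longest ORF was under 200 nt. Where it had 600 nt or more, 122 of 262 were (46.6%, interval 40.6 to 52.6%), and these enter the 5.48%. In the 69 XUTs of this length range that were left out, the longest ORF was called in 26 (37.7%, interval 27.2 to 49.5%). That interval lies just above the one of the 155, so 20.0% describes the XUTs kept and not the whole length range. Why the share was higher in the XUTs left out was not tested. Counted by transcript, 56 of the 155 XUTs had a called ORF (36.1%, interval 29.0 to 43.9%). In 17 XUTs the longest ORF alone was called, in 14 it was called with others, and in 25 others were called without it. Stricter rules moved the classes unequally. With a phase score of at least 0.6 as well, 6 longest and 33 other ORFs were called (3.28% of all ORFs in the table). With at least 10 valid codons the counts were 23 and 24 (2.86% in the table), and with at least 30 reads they were 21 and 37 (3.90% in the table).

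Longest ORFs reached 5 valid codons more often than other ORFs, and below 5 no ORF of the table is called. Longest ORFs have more codons and, pooled, more reads per codon (0.734 against 0.315). The parts of length and reads were not tested. Among longest ORFs 38 of 155 reached 5 (24.5%, interval 18.4 to 31.9%), against 78 of 1785 others (4.37%, interval 3.52 to 5.42%). Of those that reached 5, the longest ORFs were called in 31 of 38 cases (81.6%, interval 66.6 to 90.8%) and the others in 60 of 78 (76.9%, interval 66.4 to 84.9%), and these intervals overlap. The share over the whole table was 88.1%. Reads were present in 100 of the 155 longest ORFs and in 495 of the 1785 others. The remaining 55 longest ORFs had 0 reads, a count that allows up to 3.

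**Figure D1:**
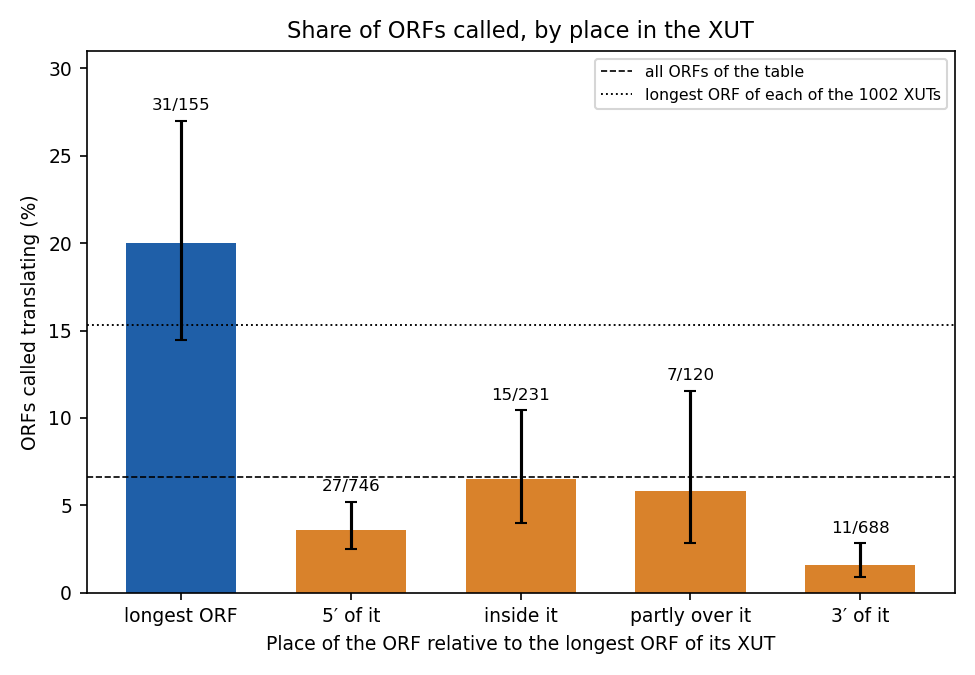
Share of ORFs called translating (%, y axis) for the 155 longest ORFs and for other ORFs by their place relative to the longest one (x axis), with Wilson 95% intervals as error bars and called over all ORFs above each bar. The longest ORFs reach 20.0% (31 of 155), ORFs inside or partly over them 6.49% and 5.83%, ORFs on the 5′ side 3.62% and ORFs on the 3′ side 1.60%; the dashed and dotted lines mark 6.60% and 15.3%.

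Reads were concentrated in a few transcripts. The 10 longest ORFs with most reads held 8821 of the 10710 reads of all 155 (82.4%). The first of them was a 231-nt ORF of XUT0292 (chromosome 2, 367422 to 367652, minus strand), which had 2229 reads and 57 of its 77 codons valid. Its phase score was 0.766, the highest among called longest ORFs with at least 100 reads. Next came the 327-nt ORF of XUT0418 (chromosome 2, 1702567 to 1702893, plus strand), which scored 0.529 on 1474 reads with 84 of 109 codons valid. XUT0982 followed with a 471-nt ORF (chromosome 10, 80809 to 81279, plus strand) that scored 0.638 on 963 reads, with 84 of 157 codons valid. In all 3 the score thus came with many valid codons, from 57 to 84. Reads per position are not given, so how evenly the codons weigh in the score cannot be seen.

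A second tier had between 693 and 846 reads. XUT0478 carried 846 on a 381-nt ORF (chromosome 3, 555683 to 556063, plus strand) that scored 0.581. XUT0121 carried 836 on a 270-nt ORF (chromosome 1, 1388387 to 1388656, plus strand) that scored 0.616. XUT0448 carried 821 on a 300-nt ORF (chromosome 3, 256430 to 256729, minus strand) that scored 0.563. The 3 thus resembled each other in both reads and score, with 82, 71 and 62 valid codons. XUT0648 closed the tier with 693 reads, 70 valid codons and a score of 0.573 on a 423-nt ORF (chromosome 5, 564575 to 564997, plus strand).

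Below these the scores spread more widely. Despite 370 reads and 69 valid codons, the 390-nt ORF of XUT0632 (chromosome 5, 301773 to 302162, minus strand) scored 0.335, the lowest of the 31 called longest ORFs. On 268 reads, the 420-nt ORF of XUT0522 (chromosome 3, 1088957 to 1089376, plus strand) scored 0.464. The 375-nt ORF of XUT0739 (chromosome 6, 712965 to 713339, plus strand), with 321 reads, was the one among the 10 that was not called, at a score of 0.224. Outside the 10, longest ORFs of at least 100 reads were called in XUT0875 (246 reads), XUT0953 (207 reads), XUT0055 (152 reads) and XUT0780 (143 reads). Their scores were 0.393, 0.540, 0.490 and 0.550.

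**Figure D2:**
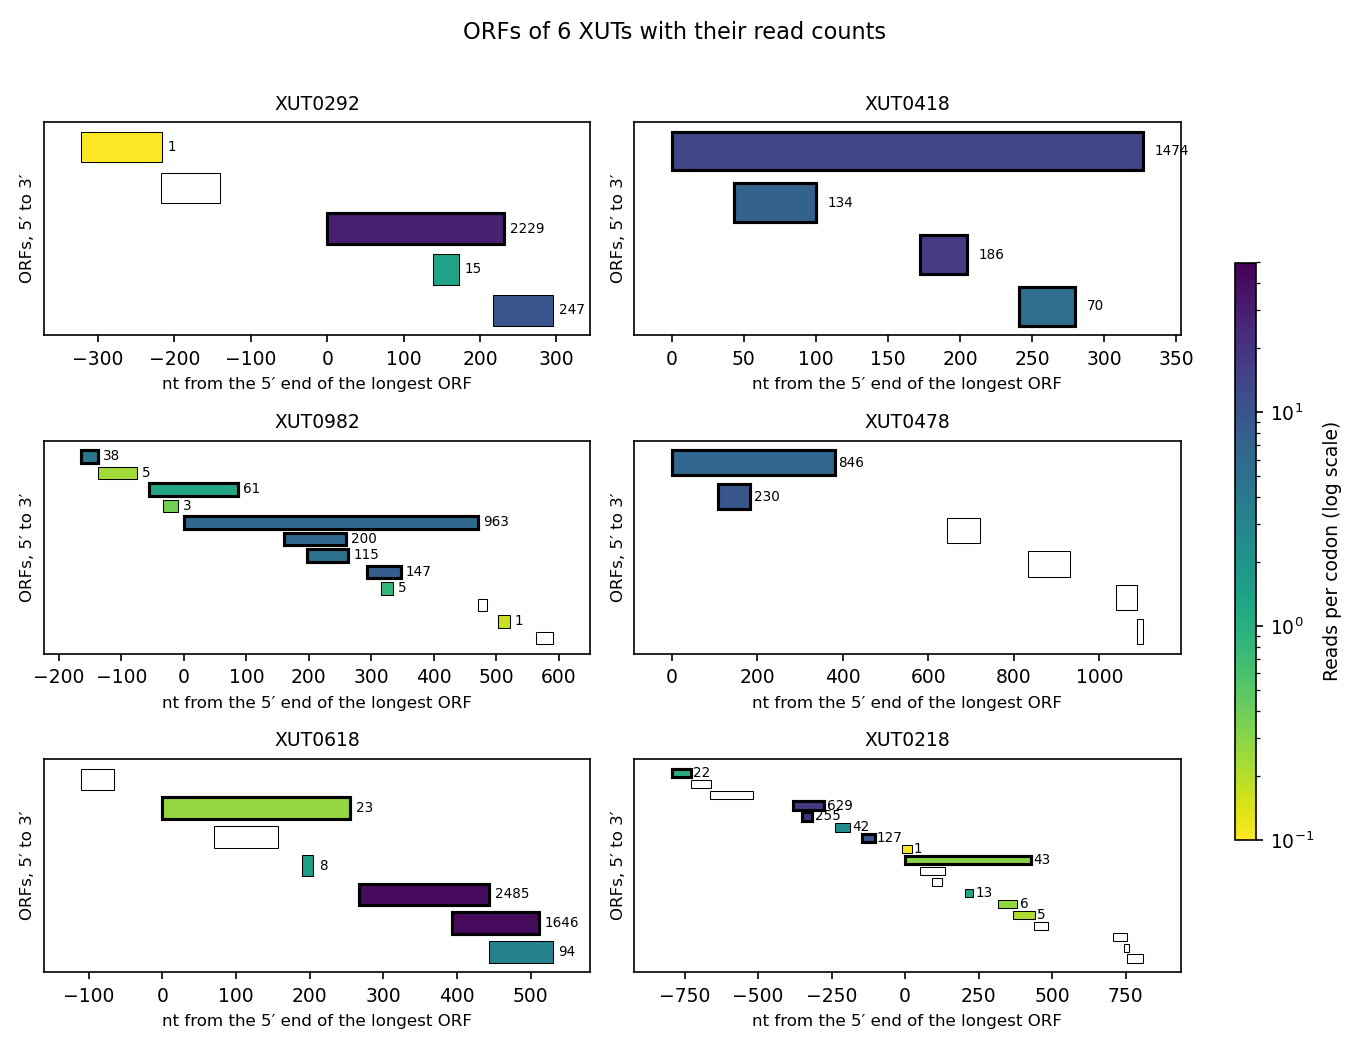
All listed ORFs of 6 XUTs, drawn 5′ to 3′ against the distance in nt from the 5′ end of the longest ORF (x axis), coloured by reads per codon on a log scale (white, no reads), with thick outlines for called ORFs and the read count at the right of each ORF with reads. In XUT0292, XUT0418, XUT0982 and XUT0478 the reads lie in and over the longest ORF, whereas in XUT0618 they lie 3′ of it (2485 and 1646 reads) and in XUT0218 5′ of it (629 reads).

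Where the longest ORF was called with at least 100 reads, the other listed ORFs that did not overlap it had few reads. The table holds no reads outside listed ORFs. There were 13 called longest ORFs with at least 100 reads, and in each of the 13 the longest ORF had more reads than any other ORF of its XUT. They were picked for many reads in the longest ORF, so that lead is a description and does not carry over to the 155, where the longest ORF led in 57 of the 136 XUTs with reads. XUT0056, whose longest ORF was not called, had 105 reads in it and 100 in outside ORFs. Of the 13 XUTs, 9 also held ORFs that shared no nucleotide with the longest one. The summed reads of those outside ORFs ranged from 0 to 52 per XUT, with a median of 2. XUT0292 had 1 read in its outside ORFs beside 2229 in the longest. XUT0478 had 0 beside 846, although its span of 1102 nt extends well past the 381-nt ORF, and XUT0448 had 5 beside 821. Larger outside counts stood on the 5′ side in XUT0121 and XUT0982. In XUT0121 a called 33-nt ORF ended 111 nt before the longest ORF and had 50 reads. In XUT0982 a called 27-nt ORF ended 137 nt before it and had 38 reads. XUT0982 had the most called ORFs of the 155 XUTs, 6 of 12, of which 4 besides the longest overlapped it.

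**Figure D3:**
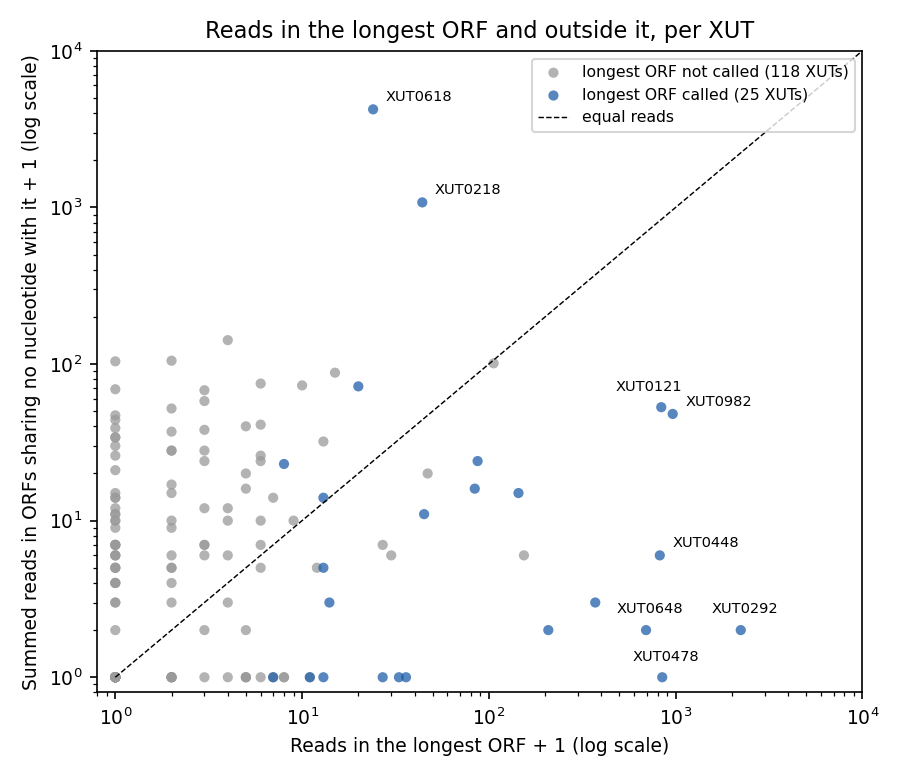
Reads in the longest ORF (x axis) against the summed reads of the ORFs that share no nucleotide with it (y axis), both plus 1 on log scales, for the 143 XUTs that have such ORFs; blue points are XUTs whose longest ORF was called and the dashed line marks equal reads. XUT0292, XUT0478, XUT0448 and XUT0648 lie far below the line, with 0 to 5 reads outside the longest ORF, while XUT0618 and XUT0218 lie far above it.

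A pair of XUTs went the other way and held most of the reads outside longest ORFs. XUT0618 and XUT0218 had 5300 of the 7507 reads in ORFs that shared no nucleotide with a longest ORF (70.6%). Some of these ORFs overlap each other, so a footprint can be counted more than once. In XUT0618 (chromosome 5) the 255-nt longest ORF was called with a score of 0.681, yet it had 23 reads. A 177-nt ORF that starts 12 nt past its end, in the same reading frame (141440 to 141616, plus strand), scored 0.743 on 2485 reads, more than any of the 155 longest ORFs had, with 53 of its 59 codons valid. A 117-nt ORF that overlaps the latter in another frame scored 0.390 on 1646 reads. The longest ORF therefore took 0.540% of this transcript's ORF reads, the lowest share among XUTs whose longest ORF was called.

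In XUT0218 (chromosome 1, minus strand) the reads stood 5′ of the longest ORF. That 429-nt ORF was called with 43 reads and a score of 0.632. A 108-nt ORF (2573668 to 2573775), which ends 275 nt before it, scored 0.625 on 629 reads, and a 36-nt ORF inside it held 255 reads. Closer to the longest, a 42-nt ORF scored 0.806 on 127 reads. The other XUTs where a called longest ORF had fewer reads than 1 outside ORF were XUT0105 and XUT0479, with 7 and 19 reads in the longest.

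Summed over all 155 XUTs, the longest ORF held 10710 of 21998 ORF reads (48.7%, interval 48.0 to 49.3%). That interval treats reads as independent although XUT0618 alone holds 19.3% of these reads, so it understates the spread. Without XUT0618 the share was 60.2%. A footprint under overlapping ORFs is counted for each of them. The share was 58.8% when only outside ORFs were set beside the longest one, although outside ORFs that overlap each other still count the same footprints. Per codon, the longest ORFs pooled had 0.734 reads, all other ORFs 0.315 and the outside ORFs 0.263. This pooled order did not describe the typical transcript. The longest ORF had the most reads in 57 of the 136 XUTs with reads (41.9%, interval 34.0 to 50.3%), ties included. It was denser per codon than the outside ORFs pooled in 54 of 127 XUTs. Where the longest ORF was called, it had the most reads in 27 of 31 XUTs and was denser than the outside ORFs in 21 of 25. A call needs reads, so these counts are a description.

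The phase scores of called longest ORFs had a median of 0.490 (interquartile range 0.397 to 0.577) over a median of 16 valid codons. Those of the 60 called other ORFs had a median of 0.619 (0.422 to 0.701) over 8 valid codons. Scores that rest on few codons spread widely, so the order of these medians is not read as a difference in periodicity. The 13 called longest ORFs with at least 100 reads had a median of 0.550. The highest score of a called longest ORF, 0.829, belonged to XUT0637 and rested on 44 reads and 9 valid codons.

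**Figure D4:**
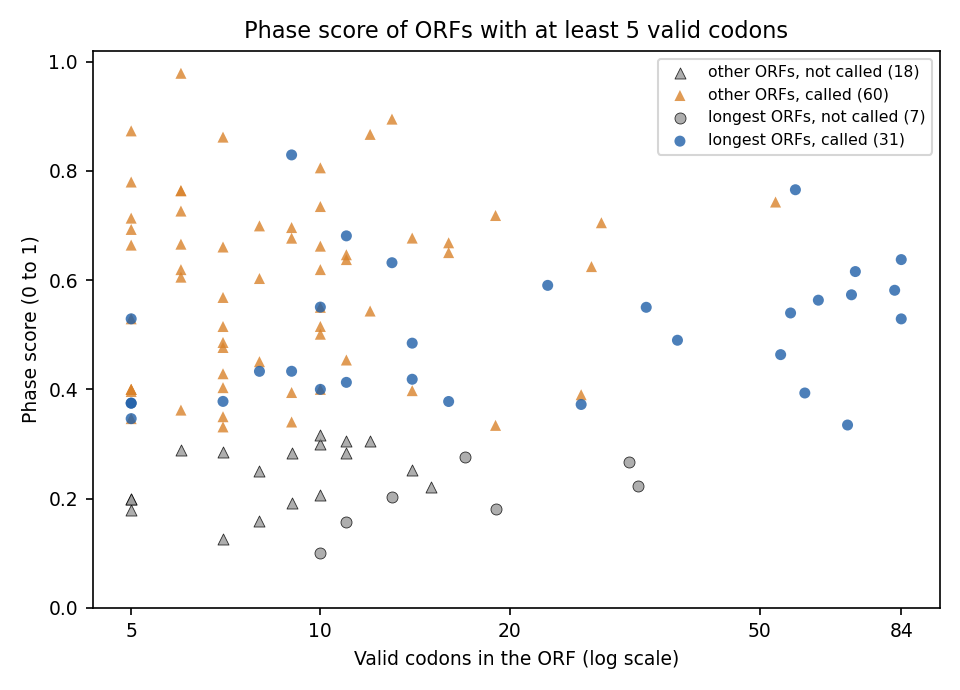
Phase score (0 to 1, y axis) against the number of valid codons (log scale, x axis) for the 38 longest ORFs (circles) and 78 other ORFs (triangles) with at least 5 valid codons; grey symbols were not called. Called longest ORFs with 50 or more valid codons keep between 0.335 and 0.766, and the 7 longest ORFs that were not called lie between 0.100 and 0.276.

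Well-covered longest ORFs without a call were few. Of the 38 with at least 5 valid codons, 7 were not called, with scores from 0.100 to 0.276 and 10 to 32 valid codons. Those in XUT0739 (321 reads), XUT0085 (153 reads) and XUT0056 (105 reads) had the most reads. The remaining 4, in XUT0804, XUT0880, XUT0204 and XUT0174, had 46, 29, 26 and 12 reads. In XUT0739 the reads were uneven: a 57-nt ORF inside the 375-nt one, in another frame, held 212 reads and scored 0.895. In XUT0085 a 96-nt ORF partly over the 465-nt one held 64 reads and scored 0.662. Both shorter ORFs were called.

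In the 25 XUTs where others were called without the longest ORF, 33 other ORFs were called, of which 21 lay 5′ of it, 8 lay 3′ of it, 3 overlapped it in part and 1 lay inside. Most ORFs of XUTs with an uncalled longest ORF stand apart from it anyway. Called were 21 of 686 on the 5′ side (3.06%, interval 2.01 to 4.63%), 8 of 609 on the 3′ side (1.31%, interval 0.667 to 2.57%) and 4 of 273 that overlap it (1.47%, interval 0.571 to 3.71%), and these intervals overlap. The 21 on the 5′ side had few reads, from 5 to 87 with a median of 21. The 99-nt ORF of XUT0224 (chromosome 1) scored 0.515 on 87 reads and ended 584 nt before a longest ORF with 3 reads. The 36-nt ORF of XUT0314 (chromosome 2) scored 0.677 on 54 reads, beside a longest ORF with 1 read. In XUT0346 and XUT0939 the longest ORF had 0 reads, beside called 5′ ORFs of 20 reads in the former and of 16 and 8 reads in the latter. On the 3′ side, the 114-nt ORF of XUT0876 had 47 reads and the 78-nt ORF of XUT0633 had 34 reads. XUT0393, whose 501-nt ORF is among the 5 longest, had 5 reads in that ORF and 2 called ORFs before it with 40 and 34 reads. XUT0190 had 2 called ORFs of 12 reads each on the 3′ side.

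When the longest ORF was called, the other calls lay mostly on top of it. In those 14 XUTs 27 other ORFs were called, 14 inside the longest ORF and 4 partly over it, with 6 on the 5′ and 3 on the 3′ side. Of the ORFs that share nucleotides with a called longest ORF, 18 of 78 were called (23.1%, interval 15.1 to 33.6%). Of those that share nucleotides with a longest ORF that was not called, 4 of 273 were (1.47%, interval 0.571 to 3.71%). These overlapping ORFs lie in other reading frames than the longest one, 0 of them in its own frame, and the table counts the same footprints for both. For outside ORFs, which share no reads with the longest one by position, the shares were 9 of 139 (6.47%, interval 3.44 to 11.8%) and 29 of 1295 (2.24%, interval 1.56 to 3.20%). Of the 9, 2 stood in XUT0618 and 4 in XUT0218. ORFs of the same transcript are not independent, so these shares are not read as a difference. Counting 1 ORF per group of overlapping called ORFs left 52 of the 60 called others.

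The called longest ORFs mostly lay between annotated genes. Genes were taken from the RefSeq annotation of assembly ASM23734v1, whose positions were judged to match by a shift of called ORFs of at least 200 nt. Unshifted, these overlapped a listed gene in 13 of 100 cases. Shifted by 2000 to 20000 nt, they did so in 80 to 93 of 100. The called longest ORFs described here are of that kind, so their low gene overlap is not independent of that check. The gene table gives no strand, so sense and antisense overlap cannot be told apart. Of the 155 longest ORFs, 54 overlapped no listed gene, and 24 of these were called (44.4%, interval 32.0 to 57.6%). The other 101 overlapped a listed gene, 65 of them wholly, and 7 were called (6.93%, interval 3.40 to 13.6%). Over all 1002 XUTs the longest ORFs were called in 23.6% without and 6.68% with such an overlap, but most of those ORFs are shorter. Over all ORFs of the table with at least 200 and under 600 nt, members included, 59 of 138 without an overlap were called (42.8%, interval 34.8 to 51.1%) and 12 of 140 with one (8.57%, interval 4.97 to 14.4%). The 155 longest ORFs supply 54 of those 138 and 101 of those 140, so the shares are not an independent comparison. Median reads of the 54 and the 101 were 11.5 and 1, and median lengths 283.5 and 249 nt. Of the longest ORFs with at least 30 reads, 22 overlapped no listed gene and 3 overlapped one. The other ORFs of these XUTs were called in 42 of 815 cases without a gene overlap (5.15%, interval 3.83 to 6.89%) and in 18 of 970 with one (1.86%, interval 1.18 to 2.91%). Over all ORFs of the table these shares were 9.88% and 2.52%, but those include the longest ORFs, so the sets are unlike.

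Of the 13 called longest ORFs with at least 100 reads, 12 overlapped no listed gene. The ORF of XUT0292 lay between DER1 and MCM7, whose S. cerevisiae namesakes act in the degradation of proteins of the endoplasmic reticulum and as a subunit of the replicative helicase. The ORF of XUT0418 lay between LSB5 and GRX1, the latter a glutaredoxin in S. cerevisiae. The ORF of XUT0478 lay between SEC10, an exocyst subunit there, and PUS5, a pseudouridine synthase. The ORF of XUT0121 lay between PSD2, a phosphatidylserine decarboxylase, and PUS6, another pseudouridine synthase. XUT0448 stood between TFB2 and RNY1, XUT0648 between MSS51 and HMX1, and XUT0632 between KAP104 and MNN2. XUT0618, with the reads 3′ of its longest ORF, stood between PRE9, a proteasome subunit, and CAF130.

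The 7 called longest ORFs that overlapped a listed gene had 6 to 143 reads. The one with the most, in XUT0780, lay wholly inside NCAS0G01410. Those of XUT0637, XUT0540 and XUT0721 lay inside RRT5, RRP42 and RNH202. In S. cerevisiae, Rrp42 belongs to the core of the RNA exosome and Rnh202 to ribonuclease H2. They had 44, 26 and 12 reads. The 375-nt ORF of XUT0739, not called, lay for 93.6% of its length over URN1. Footprints of a gene on the same strand would be counted in such ORFs, and this was not tested.

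Calls also differed by where the longest ORF stood in its transcript. ORFs were ranked from the 5′ end of the listed set. The longest ORF was the first or the second in 52 XUTs, of which 19 were called (36.5%, interval 24.8 to 50.1%). It stood later in 103 XUTs, of which 12 were called (11.7%, interval 6.79 to 19.3%). With no gene overlap, 16 of 21 longest ORFs at the front were called (76.2%, interval 54.9 to 89.4%) and 8 of 33 that stood later (24.2%, interval 12.8 to 41.0%). With a gene overlap the counts were 3 of 31 (9.68%) and 4 of 70 (5.71%). Transcripts with a called longest ORF were also more compact: their listed ORFs spanned a median of 617 nt (450 to 985.5) and numbered 6 (4.5 to 10.5). The XUTs whose longest ORF was not called spanned 942 nt (541 to 1533.5) with 11 ORFs (7 to 19). Order and the number of ORFs are linked, since an ORF of a short list stands near its front more easily. Their parts were not tested. The share called by order was not taken over the whole table, nor where the longest ORF was under 200 nt or had 600 nt or more. The split by order therefore describes these XUTs and is not read as particular to them.

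**Figure D5:**
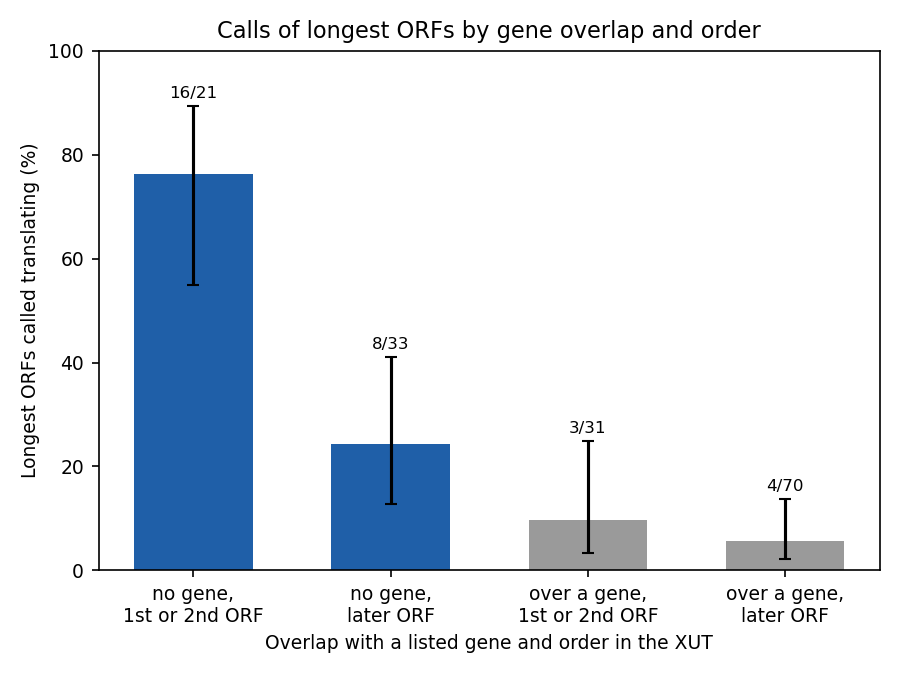
Share of longest ORFs called translating (%, y axis) by overlap with a listed gene and by order in the XUT (x axis), with Wilson 95% intervals as error bars and called over all longest ORFs above each bar. The class with no gene overlap and the first or the second place stands at 76.2% (16 of 21), and its interval lies above those of the other 3 classes, whose shares run from 5.71% to 24.2%. Shares by order were not taken over the whole table.

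Within the length range, the share called was lowest in the shortest class, highest in the longest class and alike in the classes between. It was 8 of 70 at 200 to under 250 nt (11.4%, interval 5.91 to 21.0%), 9 of 38 at 250 to under 300 nt (23.7%, 13.0 to 39.2%), 8 of 33 at 300 to under 400 nt (24.2%, 12.8 to 41.0%) and 6 of 14 at 400 to under 600 nt (42.9%, 21.4 to 67.4%). Neighbouring classes overlap in their intervals. Longest ORFs without a gene overlap were also longer (median 283.5 against 249 nt), and the parts of length and gene overlap were not tested. The 5 longest show how uneven the top of the range was. The 591-nt ORF of XUT0875 had 246 reads and the 567-nt ORF of XUT0094 had 83, at scores of 0.393 and 0.372. The 555-nt ORF of XUT0806 and the 501-nt ORF of XUT0393 had 4 and 5 reads and were not called, whereas the 471-nt ORF of XUT0982 had 963.

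In the share of longest ORFs called, these transcripts lay between their shorter and longer relatives that passed the same exclusions. Where the longest ORF was under 200 nt, it was called in 38 of 535 XUTs (7.10%, interval 5.22 to 9.60%), and where it had 600 nt or more, in 20 of 21 (95.2%, interval 77.3 to 99.2%). The longest ORF held 25.8%, 48.7% and 69.7% of the ORF reads in the short, middle and long class. The middle value rests on the XUTs kept: it was 77.2% when only overlapping opposite-strand spans were left out, which lets in XUT0250, and 27.8% as the median of 56 XUTs with at least 30 reads. No order of the classes is read from these read shares. Among other ORFs that share no nucleotide with the longest, 2.72%, 2.65% and 1.85% were called, shares whose intervals overlap. Among others that overlap it, the shares were 3.06%, 6.27% and 58.2%. With no gene overlap, the longest ORF was called in 22 of 223 XUTs of the short class (9.87%, interval 6.61 to 14.5%) and in 24 of 54 of the middle class. With a gene overlap the shares were 5.13% and 6.93%. In the long class 19 of 21 longest ORFs overlapped no listed gene, against 54 of 155 in the middle class. All 19 were called, as was 1 of the 2 with an overlap. The part of gene overlap in the order of the classes was not tested. No test over samples stands behind these comparisons.

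At the lower bound, the nearest longest ORFs inside measured 201 nt in XUT0524, XUT0590 and XUT0636 and had 1, 0 and 2 reads. Just outside, at 198 nt, XUT0725 had 52 reads and was called, and XUT0754 and XUT0799 had 0 and 2. At the upper bound, XUT0806, XUT0094 and XUT0875 had 4, 83 and 246 reads, and just outside, XUT0870 (624 nt) had 6022, XUT0635 (639 nt) 108 and XUT0492 (681 nt) 2.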

How the data were processed

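Trimming used Trim Galore and alignment HISAT2, per the submitters' processing notes. The sources used here name neither their versions nor the genome build, P-site offsets or scoring program. For each ORF the authors deposited, merged over libraries, a whole-number read count, a coverage in reads per codon, the fraction of codons that are valid, and a phase score with a call. The coverage signal equals the deposited read count over the number of codons in every row. From these, shares with Wilson 95% intervals, medians and overlaps of at least 1 nt were computed in Python 3.11.15 (pandas 2.3.3, numpy 2.4.6, scipy 1.17.1). The table sums to 212510 reads, which is not a library depth. No molecular identifiers are named, so intervals cover counting error only.

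Of equally long ORFs, the one nearest the 5′ end counted as longest. The members, lists and alternatives were chosen with earlier results of these data known. Named ORFs follow a rule: among longest ORFs, the 10 with most reads, the 10 highest scores among called ones with at least 100 reads, the 5 longest, and all with at least 5 valid codons but no call; the 10 XUTs with most other reads where others alone were called; the 5 called outside ORFs with most reads; and the XUT with most calls. The rule's selection and placement of ORFs were tested on simulated data. XUT0105, XUT0479, the called ORFs over genes and the short 5′ ORFs of XUT0121 and XUT0982 were named after their values were seen. The planned contrast of upf1 with wild type was not run.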

Additional observations from a re-analysis of the deposited data

How the results depend on the processing

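No paired analysis was possible because each deposited value pools libraries that the file does not name, and no replicate could be left out. The 31 called longest ORFs became 6 when a score of 0.6 or more was required and 14 with longest ORFs of at least 300 nt. The latter setting, like the one without gene overlap below, keeps fewer XUTs, so a lower count there is not a lower share. The 14 were 8 of 33 at 300 to under 400 nt and 6 of 14 at 400 to under 600 nt. The 60 called others became 33 at that score, 24 with at least 10 valid codons, 37 with at least 30 reads, 32 with the longer ORFs and 39 where the longest ORF overlaps no listed gene, a setting chosen after seeing the data. The 56 XUTs with a call became 24, 29, 33, 22 and 33 under these 5 settings in the same order, and the 38 called outside ORFs became 19, 9, 17, 15 and 20. The median score of 0.490 became 0.659 at a score of at least 0.6. The share of XUTs with reads whose longest ORF leads, 41.9%, was 13.2% when ranked by reads per codon and 58.5% without gene overlap. The ranking per codon sets the longest ORF against each single other ORF. Other ORFs had a median length of 45 nt and went down to 15 nt, so few reads give them a high value per codon. The share of ORF reads in the longest ORF, 48.7%, was 47.9% with XUTs near chromosome ends, 60.1% with the longer ORFs, 60.2% without XUT0618, 64.1% without XUT0618 and XUT0218 (chosen after seeing the data), 58.8% against outside ORFs, 50.9% without gene overlap and 27.8% as the median of 56 XUTs with at least 30 reads. It was 77.2% when only overlapping opposite-strand spans were left out, a set that lets in XUT0250 with 37230 reads. The other 29 values under alternatives stayed within 1.5 times a count, the interval of a share or 1 SD of the score. For the share of ORF reads that interval is narrow, since it treats reads as independent. Sparse reads limit what can be seen: no ORF with fewer than 5 valid codons is called in the table.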
